A study of Mus musculus with 4 samples.

Results

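Type 1 conventional dendritic cells (cDC1) of the mouse esophagus were selected on transcripts of their 2 defining surface receptors. A cell entered the gate with a summed count of at least 2 unique molecular identifiers (UMIs, each standing for 1 captured transcript) of Xcr1 and Clec9a, fewer than 10 UMIs of the macrophage genes C1qa, C1qb and C1qc, and fewer than 3 UMIs of the cycling genes Mki67 and Top2a. The gate held 87 of 6054 cells, 41 from wild-type and 46 from knock-out animals. Because these 7 genes chose the cells, their levels are given as descriptions only.

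The cells came from live CD45+ (immune) esophageal suspensions of 5 wild-type mice and 5 mice lacking Il20rb, the receptor subunit shared by IL-19, IL-20 and IL-24. All 10 animals, wild-type ones included, went through the same model of eosinophilic esophagitis, in which allergy inflames this organ: daily ear treatment with 1 nmol of MC903 (calcipotriol) and ovalbumin for 14 days, ovalbumin in the drinking water from day 14, gavage with ovalbumin on days 15 and 17, and sampling on day 18. No untreated animals are among the samples, and the strain, sex and age of the mice and the make of the Il20rb allele are not given in the labels. Suspensions were marked with 1 hashtag antibody per animal, pooled and run in 2 wells, so the animal was the replicate and each well held cells of all animals.

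Conventional dendritic cells take up antigen in tissues and show it to T cells. The cDC1 lineage depends on the transcription factors IRF8, BATF3 and ID2, carries XCR1, the receptor for the chemokine XCL1 of natural killer and CD8 T cells, and CLEC9A, a receptor for actin exposed by dying cells, and is known for cross-presentation, the display of engulfed antigen on MHC class I. The cDC2 lineage carries lectins such as CD209A and CD301B (Mgl2) and is known for presentation to helper T cells. After maturation both lineages raise CCR7 and FSCN1 and leave for the lymph node as migratory cells.

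The RefSeq windows around the start sites of both gate genes and of Ifi205, an identity gene with matches to an interferon-type motif, are shown because the selection and the largest interferon-family difference below rest on these genes. Each runs 5′ to 3′ on the gene's strand from 250 bases before to 50 bases after the annotated start, in build GRCm38.p6, at chr9:123861980-123862279 (minus strand) for Xcr1, chr6:129408612-129408911 (plus strand) for Clec9a and chr1:174031706-174032005 (minus strand) for Ifi205. Capitals mark matches, on either strand, of GAAA followed by any 2 bases and GAAA.
Xcr1: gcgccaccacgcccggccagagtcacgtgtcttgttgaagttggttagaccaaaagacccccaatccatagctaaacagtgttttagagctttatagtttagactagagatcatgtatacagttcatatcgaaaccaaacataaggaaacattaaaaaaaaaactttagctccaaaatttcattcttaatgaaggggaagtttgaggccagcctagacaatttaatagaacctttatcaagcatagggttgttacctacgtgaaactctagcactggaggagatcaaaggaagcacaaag
Clec9a: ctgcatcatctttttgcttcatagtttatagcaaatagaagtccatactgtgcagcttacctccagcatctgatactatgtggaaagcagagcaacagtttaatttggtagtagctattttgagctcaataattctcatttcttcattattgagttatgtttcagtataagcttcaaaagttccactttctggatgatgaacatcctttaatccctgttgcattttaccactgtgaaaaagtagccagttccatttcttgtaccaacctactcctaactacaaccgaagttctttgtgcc
Ifi205: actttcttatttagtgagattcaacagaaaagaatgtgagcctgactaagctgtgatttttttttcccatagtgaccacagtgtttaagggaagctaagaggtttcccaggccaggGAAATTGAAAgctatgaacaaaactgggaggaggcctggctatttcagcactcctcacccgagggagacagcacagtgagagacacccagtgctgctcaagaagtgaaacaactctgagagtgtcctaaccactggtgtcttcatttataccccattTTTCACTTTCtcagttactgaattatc

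The Ifi205 window held 2 matches, starting at bases 117 and 274 of the window. This motif, the core letters of an interferon-stimulated response element, was found on 1 or both strands in 3.44% of all 32851 RefSeq windows of this length. Of the 26 windows of the 24 identity genes listed by RefSeq, those of Ifi205 and Tlr11 held it. TGANTCA, the core letters of an AP-1 site, was found in 7.81% of all windows and in 0 of the 26. The windows of Xcr1 and Clec9a held neither motif.

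The selected cells carried the other genes of the lineage. Of 10 cDC1 marker genes that the gate did not use, 81 of the 87 cells had UMIs of at least 5, and their summed level was 4533 CPM (a gene's UMIs scaled to a fixed total over all UMIs of the cells) against 789 CPM in cDC2 and 389 CPM in migratory cells. For this comparison, 684 cDC2 cells were selected on at least 2 Cd209a UMIs with no Xcr1 or Clec9a UMI, and 67 migratory cells on at least 4 UMIs of Ccr7 and Fscn1. T cell markers gave 1 UMI in all gate cells together, mast cell or basophil markers 0, neutrophil markers 17 and migratory markers 27, with Ccr7 and Fscn1 themselves at 0. Other lists gave more. Plasmacytoid markers stood at 366 CPM (268 UMIs) against 524 CPM in cDC2. B cell markers stood at 95.5 CPM (70 UMIs) against 70.3 CPM in cDC2 and 974 CPM in all cells. Epithelial markers, at 51.8 CPM (38 UMIs), were above cDC2 (10.1 CPM) and all cells (15.1 CPM). The cDC2 list gave 434 CPM against 4440 CPM in the cDC2 gate, and macrophage and monocyte lists gave 1258 and 1340 CPM against 10621 and 4626 CPM in all cells. The cDC2 list includes Cd209a, which selected the cDC2 cells, and the macrophage list includes the C1q genes that the gate limited. Both contrasts are therefore partly set by the selection.

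A pair of gate cells (2) had none of the 10 other markers. Both came from wild-type animal 5, passed on Clec9a alone and carried 88 and 5 UMIs of Lyz2, a lysozyme of myeloid cells, so the share of gate cells and the level of Tsc22d3 are also given without them. A further 3 cells, 1 each from wild-type animal 4 and knock-out animals 1 and 3, also had 2 or more Cd209a UMIs. The threshold fell within a gradual range: 33 cells had exactly 2 gate UMIs, of which 30 carried at least 5 other markers, and 86 cells just outside had exactly 1, of which 53 did. Both receptors were seen in 52 cells, Xcr1 alone in 13 and Clec9a alone in 22. Among the 108 cells with 2 or more gate UMIs, the limit on cycling genes left out 21, all with at least 5 other markers, and the limit on C1q genes left out 0.

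Gate cells were deeper than most cells of the table, with a median of 8415 UMIs (2946 to 16107) and 2211 genes, against 7031 UMIs in cDC2, 7190 in migratory cells, 3198 in T cells and 5269 in all cells. Their median mitochondrial share was 1.82%. The summed depth per animal ran from 31586 UMIs in knock-out animal 5 (4 cells) to 140683 in knock-out animal 2 (16 cells), so levels of single animals rest on few transcripts. Il20rb, the deleted gene, gave 16 UMIs in all 6054 cells, 10 of them wild-type, and 0 in the gate, where 3 UMIs would be 4.09 CPM. It therefore cannot check the genotype labels, and the part of Il20rb that the allele removes is not given in the labels.

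Gate cells made up 0.557, 1.57, 1.36, 1.4 and 1.38% of the cells of wild-type animals 1 to 5, and 0.798, 4.1, 2.58, 2.88 and 0.589% of those of knock-out animals 1 to 5. Knock-out animals 2, 3 and 4 lay above every wild-type animal, while knock-out animals 1 and 5 lay below 4 of the 5 wild-type animals. The means were 1.25 ± 0.398% and 2.19 ± 1.48% (SD, n = 5 each), a difference within the spread between animals (two-sided exact permutation p = 0.206; the smallest possible is 0.00794). Without the 2 cells that lack other markers, wild-type animal 5 had 1.04%, the wild-type mean was 1.19% and the difference 1.01 percentage points (exact permutation p = 0.175). Within well 1 the means were 1.6 and 1.67% (exact permutation p = 0.913), and within well 2 they were 0.932 and 2.69% (exact permutation p = 0.0873). As a share of the 3 dendritic-cell gates, wild-type animals had 10.5 ± 1.16% and knock-out animals 10.1 ± 4.41% (exact permutation p = 0.849, n = 5 each). Thinning every cell to 1000 UMIs and counting cells with a gate UMI gave 0.645 and 1.14% (exact permutation p = 0.135). Per animal, 8.2 ± 2.39 and 9.2 ± 4.76 cells were found.

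**Figure D1:**
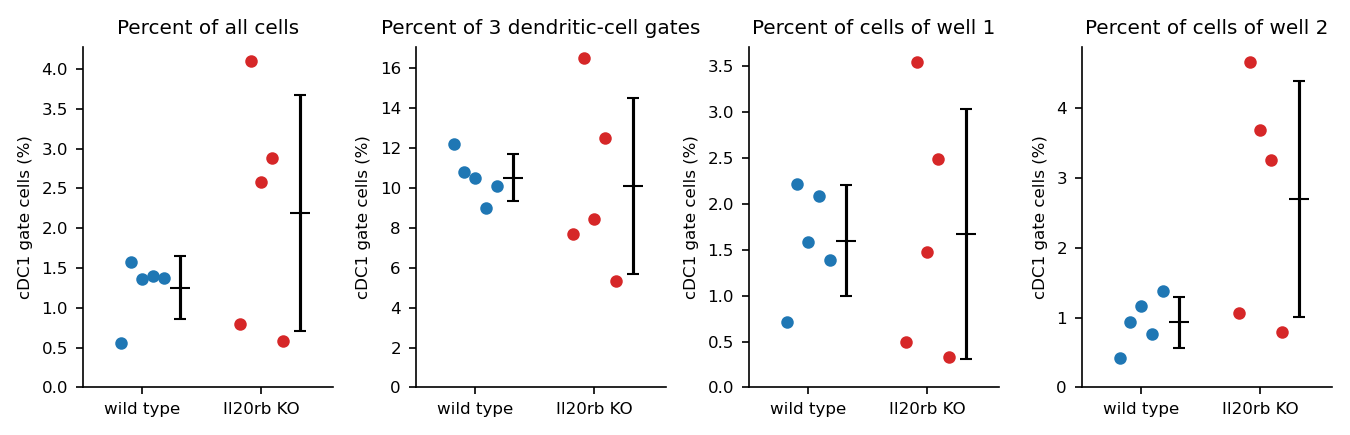
cDC1 gate cells as a percent of all cells, of the 3 dendritic-cell gates together, and of the cells of each well; points are animals in hashtag order and bars the mean ± SD (n = 5 per genotype). Knock-out animals spread from 0.589 to 4.1% of all cells and wild-type animals from 0.557 to 1.57%.

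The cycling cells left out by the gate were 22.7 ± 12.4% of the cells with 2 or more gate UMIs of wild-type animals and 11.6 ± 10.8% of those of knock-out animals (exact permutation p = 0.175, n = 5 each). In knock-out animals 1 and 5 none was seen, and in the other 8 animals the share ran from 11.1 to 41.7%. No gate cell had a UMI of Ccr7 or Fscn1, 0 of 87, which allows up to 3.45% of cells with a UMI of either (counting error only) and sets no limit on cells that express them. In the migratory gate, selected on these genes, 98.5 and 79.1% of cells had a UMI of each.

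The transcription factors that the lineage depends on were higher in the gate than in cDC2. Irf8 was at 1104 to 1789 CPM (median 1315) in the gate of the 10 animals and at 0 to 25.2 CPM (median 4.24) in cDC2, with no overlap. In edgeR's quasi-likelihood test within the 4 animals that had 10 or more gate cells (wild-type 2 and 3, knock-out 2 and 4), the log2 fold was 7.42 ± 0.23 (SE, adjusted p = 1.23e-15). It had a UMI in 96.6% of gate cells, 3.51% of cDC2 and 8.53% of T cells, and after thinning to 3000 UMIs in 92.4, 1.74 and 5.74%. Id2 ran from 538 to 1150 CPM against 44.1 to 195 CPM (log2 fold 2.62 ± 0.15), again without overlap. Batf3 ran from 53.8 to 665 CPM against 92.6 to 155 CPM (1.24 ± 0.21, edgeR adjusted p = 0.000143); the lowest gate value was that of wild-type animal 5. Notch2, a receptor needed by several dendritic cell subsets, was 1.08 ± 0.21 log2 higher, and at 0.79 fell short of the required fold with all 10 animals.

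Of 3938 genes tested in the 4 animals, 175 (4.44%) were higher and 279 (7.08%) lower in the gate than in cDC2, at an adjusted p under 0.05 and a log2 fold of at least 1. With all 10 animals, each with 1 or more gate cells, 82 (3.65%) of 2248 tested genes were higher and 184 (8.19%) lower, and the 239 genes called in both fits all had the same direction. The identity list holds 30 genes, of which 20 passed the low-count filter and could be tested; 19 were higher and 0 lower, with a median log2 fold of 3.54 against -0.02 over all genes tested. The list describes the lineage that the gate selects, and a gene scarce in cDC2 could pass the filter only through the gate, so the count is a description. Likewise, a gene scarce in the gate could pass only through cDC2, so counts of lower genes in the lists below are descriptions too. Xlr was the tested gene not called (0.73 ± 0.36, edgeR adjusted p = 0.191).

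Several of the genes with the largest folds had few UMIs in cDC2. Gcsam, a germinal-centre signalling adaptor, was at 16.8 to 146 CPM in the gate and at 0 UMIs in all 684 cDC2 cells, at least 153-fold higher against a floor of 3 UMIs over the cDC2 cells. Itgae, the CD103 chain that binds E-cadherin, was at 53.8 to 245 CPM (median 165) against 0 to 11.5 CPM, and in the 4 animals of the fit 84 UMIs stood against 2, a ratio of 230 with a 95% counting interval from 61.6 to 1927 (edgeR adjusted p = 1.36e-10). Tlr3, the sensor of double-stranded RNA, was at 95 to 279 CPM against 0 to 6.57 CPM (6.16 ± 0.41). Snx22 had 24 UMIs against 2 in those animals, a ratio of 65.6 (counting interval 16.3 to 573). The adhesion molecule Cadm1 (5.12 ± 0.59) and the inhibitory receptor Btla (4.51 ± 0.52) had 18 or fewer UMIs in cDC2, as did Pglyrp1, a peptidoglycan-binding protein (4.95 ± 0.69), and the actin-binding Dbn1 (4.80 ± 0.71). Cadm1 was at 0 in the gate of 1 animal, knock-out animal 5, and at 130 CPM in the highest. Tlr11 and Tlr12, sensors of profilin, gave 33 and 16 UMIs in the gate and did not pass the filter; in the gate Tlr7 gave 0 UMIs and Tlr9 gave 1. Of 19 pattern recognition genes, 6 were tested, 2 were higher (Tlr3 and Clec12a, against 4.44% of all genes) and 0 lower, with a median of 0.25.

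Naaa, a lysosomal amidase, was at 1144 to 1583 CPM in the gate and 317 to 607 CPM in cDC2 (1.51 ± 0.12), and Wdfy4, a factor needed for cross-presentation of cell-bound antigen, at 475 to 611 and 66.1 to 146 CPM (2.20 ± 0.17). The thioesterase Ppt1 was at 269 to 739 CPM against 20.9 to 44 CPM (4.24 ± 0.21). The scavenger receptor Cd36 (3.36 ± 0.31), Rab7b (3.73 ± 0.27), Sept3 (2.30 ± 0.24), the protease inhibitor Cst3 (2.41 ± 0.09) and Cd24a (1.07 ± 0.15) were higher too. In all of these the gate values of the 10 animals lay above the cDC2 median. Cd8a, carried by lymphoid-organ cDC1, gave 0 UMIs, and Ly75 (DEC-205) was seen in 13 cells.

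**Figure D2:**
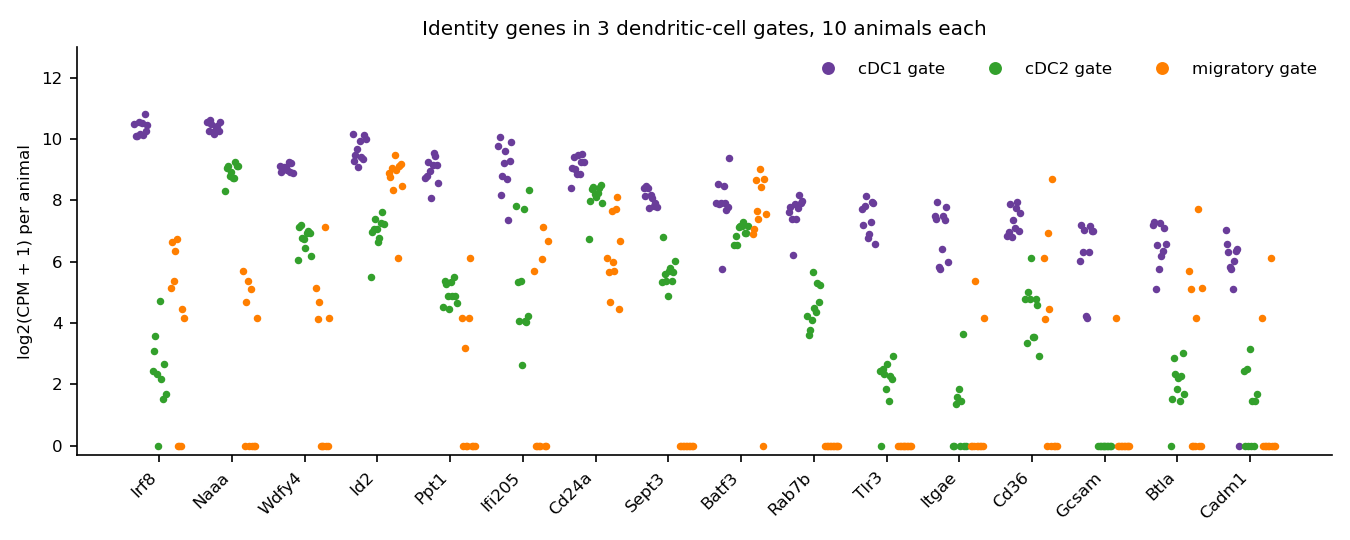
Levels of 16 identity genes as log2(CPM + 1) in the cDC1 gate (selected on Xcr1 and Clec9a), the cDC2 gate and the migratory gate; each point is 1 animal (10 per gate). Irf8 of the gate lay between 1104 and 1789 CPM in every animal and at 25.2 CPM or less in cDC2, while the ranges of Batf3 and Id2 overlapped those of migratory cells.

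Of 22 genes of the MHC class I list, 20 were tested and 6 were called higher in the gate (4.44% of all genes were), 0 lower, with a median of 0.36. The 6 were subunits of the immunoproteasome and its activator, which cut proteins into peptides, and of the transporter that carries peptides to class I. Psmb9 was at 251 to 1150 CPM against 94.1 to 346 CPM in cDC2 (1.94 ± 0.16), Psmb8 was 1.32 ± 0.13 and the activator subunits Psme1 and Psme2 were 1.41 ± 0.13 and 1.26 ± 0.16 log2 higher. The peptide transporter genes Tap1 (1.56 ± 0.27) and Tap2 (1.15 ± 0.30) were higher as well. B2m (0.00 ± 0.11), H2-K1 (-0.30 ± 0.13) and H2-D1 (-0.20 ± 0.11) missed the threshold. The 6 called genes were also called with all 10 animals, where edgeR gave H2-K1 and H2-D1 folds of -0.39 and -0.43 with adjusted p = 0.0065 and 0.000857, under the required fold of 1. Reads of the classical class I genes may be shared with near-identical copies, so their values are uncertain.

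Of 14 MHC class II genes, 13 were tested and 1 was higher, against 4.44% of all genes. It was H2-Ob, a subunit of the inhibitor of peptide exchange (1.44 ± 0.29, edgeR adjusted p = 0.00109), and the rest were not called. H2-Ab1 ran from 6269 to 7883 CPM in the gate and from 6934 to 8665 CPM in cDC2 (0.00 ± 0.07), and Cd74, the invariant chain, from 15405 to 22930 and from 20656 to 27443 CPM (-0.09 ± 0.07). Both ranges overlap. Ctss, the protease that trims the invariant chain, was at 262 to 752 CPM against 730 to 1080 CPM (-0.70 ± 0.17, edgeR adjusted p = 0.00532), a difference under the required fold.

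Of 25 genes of antigen uptake and cross-presentation, 21 were tested, 7 were higher, against 4.44% of all genes (Wdfy4, Cd36, Havcr2, Rab43, Ncf4, Tap1 and Tap2) and 2 lower, against 7.08% (Mrc1 and Cybb). Havcr2 (TIM-3), which binds phosphatidylserine, was at 67.3 to 224 CPM against 21.1 to 92.6 CPM (1.78 ± 0.28), and Rab43 at 63.3 to 275 against 70.5 to 106 CPM (1.21 ± 0.22). Ncf4, a cytosolic subunit of the NADPH oxidase, was 1.19 ± 0.27 higher, whereas Cybb, the membrane subunit of that oxidase, had 12 UMIs in the gate and was lower by a log2 fold of -3.58 ± 0.39. Mrc1, the mannose receptor, was lower still (-4.56 ± 0.31), with 11 UMIs.

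The 10 genes with the largest folds below cDC2 gave 0 to 14 UMIs in the gate. Cd209d had 0 UMIs in the gate against 126 to 404 CPM in cDC2, at least 62.1-fold lower, and Dcstamp was at least 18.6-fold lower and Cd209c at least 11.8-fold lower; the Cd209 genes are close copies whose reads may be shared. Tmem176b ran from 0 to 149 CPM against 445 to 663 CPM; in the 4 animals of the fit the gate held 1 UMI, a ratio of 220 with a 95% counting interval from 39.5 to 8706 (edgeR adjusted p = 9.98e-11). Tmem176a, its neighbour, had 0 gate UMIs in these 4 animals and was at least 56.9-fold lower there. With all 10 animals the Tmem176a and Tmem176b log2 folds were -4.29 and -4.64. Fcrls, Nrp2, Egr2, Sulf2 and Fcor had 1 to 5 UMIs each. Among transcription factors, Zeb2 (-3.85 ± 0.37), Irf4 (-3.33 ± 0.51), Klf4 (-1.81 ± 0.28), Bcl11a (-2.15 ± 0.44), Tcf4 (-1.04 ± 0.34), Cebpa (-2.10 ± 0.41), Cebpb (-1.02 ± 0.32), Irf1 (-1.82 ± 0.43) and Irf2 (-1.08 ± 0.32) were lower, 9 of 19 tested (7.08% of all genes), against 4 higher (4.44%). For Cebpb the call was lost with all 10 animals (edgeR adjusted p = 0.145).

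Immediate early genes, which respond fast to signals and to tissue digestion, were lower in the gate than in cDC2. All 18 were tested, 15 were called lower (7.08% of all genes were) and 0 higher, and the median log2 fold was -2.08. Zfp36 ran from 62.9 to 646 CPM in the gate and from 736 to 1516 CPM in cDC2, Atf3 from 31.7 to 503 and from 238 to 915 CPM (-2.27 ± 0.18), and the heat shock gene Hspa1a from 128 to 665 and from 1015 to 1930 CPM (-2.47 ± 0.15). Fos was at 235 to 1203 against 763 to 1373 CPM (-1.27 ± 0.16). With all 10 animals 13 of 17 tested were lower. Cells of the gate and of cDC2 came from the same suspensions, and the part of handling in their difference was not tested. Against migratory cells, 9 genes of this list were tested, with a median of 0.05. Of these, 3 were higher in the gate (Fos, Jund and Btg2, against 9.92% of all genes) and 1 lower (Dusp1, against 13%).

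**Figure D3:**
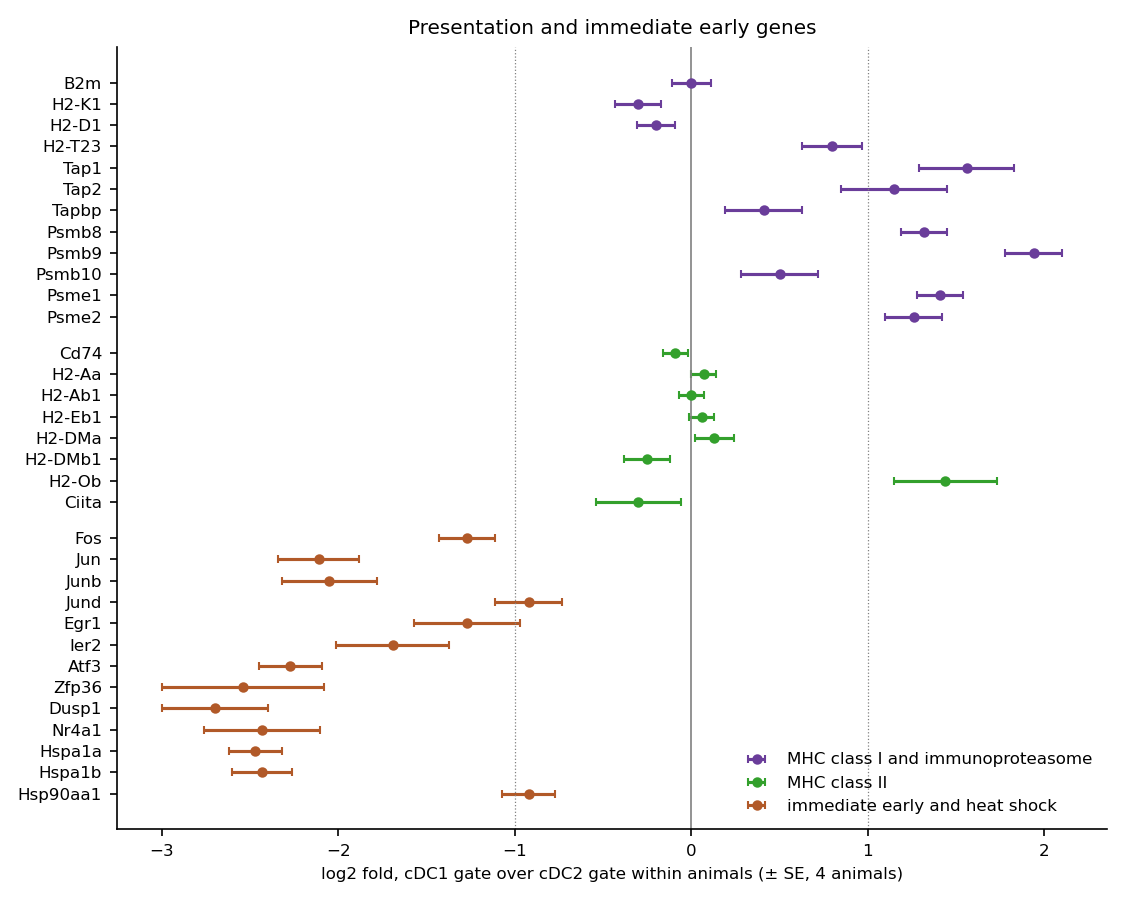
Log2 folds of the cDC1 gate over the cDC2 gate within 4 animals (points, ± SE) for genes of MHC class I, MHC class II and the immediate early list; dotted lines mark the fold of 1 required for a call. Psmb9 stood at 1.94 and Hspa1a at -2.47, while H2-Ab1 stood at 0.00.

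Of 34 genes of the type I interferon list, 15 were tested, 5 were higher (4.44% of all genes were) and 0 lower, with a median of 0.76. Ifi205, whose start-site window is shown above, was at 163 to 1065 CPM against 5.23 to 320 CPM (4.85 ± 0.21, edgeR adjusted p = 4.33e-13); its family on chromosome 1 holds similar copies, and sharing of reads was not tested. Irf7 (1.97 ± 0.38), Stat2 (1.28 ± 0.38), Phf11b (1.05 ± 0.25) and Trim30a (1.08 ± 0.25) were the others. With all 10 animals 1 of 11 tested, Ifi205, was called (3.65% of all genes were), and Stat2 had a fold of 0.58 (edgeR adjusted p = 0.298). Isg15 ran from 0 to 1836 CPM in the gate and from 37.7 to 1391 CPM in cDC2, overlapping widely.

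Of 32 maturation genes 9 were tested, 5 were lower than in cDC2 (Cd83, Ccl17, Nfkbia, Birc3 and Marcksl1, against 7.08% of all genes) and 0 higher. Of 20 cytokines and chemokines that act on T and NK cells 6 were tested, 1 was lower (Ccl17) and 0 higher. A gene scarce in the gate could pass the filter only through cDC2, so both counts are descriptions. Cd83 was at 21 to 126 CPM against 178 to 337 CPM (-1.41 ± 0.30), with no overlap, and Nfkbia was -2.03 ± 0.20. Il12a, Il12b, Il27, Ccl5, Il10 and Xcl1 gave 0 UMIs, Il15 gave 8 and Ccl22 gave 1. Cxcl9, which attracts T cells through CXCR3, gave 52 UMIs in 11 cells of 7 animals, and Cxcr3 itself was seen in 20.7% of gate cells against 0.146% of cDC2 and 18.4% of T cells. At 3000 UMIs per cell these Cxcr3 shares were 8.53, 0.057 and 15.8%.

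Among the cytokine and chemokine receptor genes tested, 0 were higher than in cDC2, and those lower included Csf1r, Il4ra, Il7r, Il1rl1 and Il2rg. Csf1r, the receptor of macrophage colony-stimulating factor, was lower by a log2 fold of -2.45 ± 0.44. Il1rl1 (ST2, the IL-33 receptor) had 5 UMIs in the gate; in the 4 animals of the fit 1 gate UMI stood against 225 in cDC2, a ratio of 41.2 with a 95% counting interval from 7.31 to 1633. Flt3, the receptor of the dendritic cell growth factor, was at 42 to 241 against 37.7 to 81 CPM (0.83 ± 0.29), and was called with all 10 animals (1.18, edgeR adjusted p = 8.50e-05). Ifngr1, a chain of the interferon-gamma receptor, gave 193 UMIs and Crlf2, the TSLP receptor chain, 45. Il20ra and Il22ra1, the partners through which IL20RB or its relatives signal, gave 0 UMIs like Il20rb, and Il10rb gave 33.

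The comparison with migratory dendritic cells used 9 animals with at least 3 cells in both gates (knock-out animal 3 had 1 migratory cell). Of 655 genes tested, 65 (9.92%) were higher and 85 (13%) lower in the gate. Of 10 identity genes tested 7 were higher and 0 lower. Naaa was at 1144 to 1583 CPM against 0 to 51.1 CPM (5.85 ± 0.31, edgeR adjusted p = 8.35e-11), and the chemokine receptor Ccr2, used to enter tissue, at 178 to 772 against 0 to 17 CPM (5.51 ± 0.39). Sept3 had 0 UMIs in migratory cells and was at least 46.9-fold higher. Ppt1 (5.50 ± 0.38), Ckb (5.03 ± 0.48), Irf8 (4.62 ± 0.32), Wdfy4 (4.58 ± 0.37), the pore-forming Mpeg1 (4.40 ± 0.30), Ifi205 (4.24 ± 0.43) and Alox5ap (4.06 ± 0.34), a leukotriene pathway gene, followed. Batf3 (-0.13, edgeR adjusted p = 0.785) and Id2 (0.72) were not called.

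Ccl22 was at 2330 to 12900 CPM in migratory cells and at 0 UMIs in the gate of the 9 animals, at least 1079-fold lower against a floor of 3 UMIs over their gate cells. With 1 gate UMI each, Il4i1 had a ratio of 619 (95% counting interval 111 to 24516), Cacnb3 of 341 (60.6 to 13516) and Il7r of 238 (42.2 to 9467). Also lower were Fabp5 (-10.19 ± 0.25), Tspan3 (-6.20 ± 0.39), Samsn1 (-5.70 ± 0.32) and Ccl17 (-5.47 ± 0.53), a chemokine for CCR4-bearing T cells. Tmem176b (-5.98 ± 0.47) and Tmem176a (-5.92 ± 0.55) were lower here as they were against cDC2. Of 32 maturation genes 9 were tested, and all 9 were lower (13% of all genes were). Their median was -4.78, also with Ccl22 at its bound, against 0.02 over all genes. The migratory cells were selected on Ccr7 and Fscn1 of this list. A gene scarce in the gate could pass the filter only through the migratory cells. This count, like that of the identity genes against migratory cells, is therefore a description. Of 12 MHC class I genes tested, 2 were higher (Calr and Pdia3, against 9.92% of all genes) and 4 lower (against 13%), with a median of -0.40. Among those lower was Psme2, which was higher in the gate than in cDC2. The others were the class I chains, which were not called against cDC2: B2m by a log2 fold of -1.48, H2-K1 of -1.85 and H2-D1 of -1.31. Of 8 MHC class II genes tested 3 were higher, the peptide editors H2-DMa (2.31) and H2-DMb1 (2.74) and H2-Ab1 (1.16), and 2 lower, Ctss and Ifi30, which act on antigen in endosomes. Both lineages can give rise to migratory cells, and the gate of origin of these 67 is not known from the files.

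Between genotypes no gene of the gate cells passed. In the 4 animals with 10 or more gate cells, 2 of each genotype, edgeR called 0 of 1255 genes (0%), with 41 at an unadjusted p under 0.05, and DESeq2 called 0, with 12. With all 10 animals edgeR called 0 of 719 (0%; 31 unadjusted) and DESeq2 0 (23 unadjusted). With the wider gate of 1 or more UMIs of Xcr1 and Clec9a, in 9 animals, edgeR called 0 of 2151 (0%; 130 unadjusted). In simulated counts of the same depth, 2-fold changes were recovered in 50% of the 26 changed genes that passed the filter with 4 animals. With 10 animals the share was 82.4% of 17. For 4-fold changes the shares were 80.9% of 47 and 100% of 26. Changed genes removed by the filter were not counted. Every simulated gene was given the same spread, so these shares do not apply to genes that vary more between animals.

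No identity gene differed between genotypes past the threshold. Irf8 was at 1425, 1107, 1104, 1504 and 1149 CPM in wild-type animals 1 to 5 and at 1480, 1116, 1789, 1238 and 1393 CPM in knock-out animals 1 to 5, which overlap. With 10 animals its fold was 0.13 ± 0.15 log2, with a 95% interval from -0.19 to 0.46. Of the 13 identity genes tested besides Xcr1 and Clec9a, 8 had a positive fold, with a median of 0.04 against -0.01 over all genes. The medians were 0.13 for MHC class I (12 tested), 0.02 for MHC class II (8 tested) and -0.38 for immediate early genes. Of the 8 immediate early genes tested, 1 had a positive fold, against 339 of all 719 genes. In the fit limited to animals with 10 or more gate cells, 5 of 13 immediate early genes were positive. Their median there was -0.12, against 0.02 over all genes (653 of 1255 positive). Of the gate genes, Xcr1 gave 168 ± 60.3 CPM (wild type) and 202 ± 129 CPM (knock-out) and Clec9a gave 206 ± 63.9 and 233 ± 58.2 CPM (SD, n = 5 each).

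Rpl29, a ribosomal protein gene, did not overlap between genotypes, though several copies of it may share reads. It was at 1215, 1337, 936, 1040 and 1059 CPM in wild-type and at 723, 803, 854, 797 and 886 CPM in knock-out animals. Every knock-out animal lay below every wild-type animal, and the fold was -0.48 ± 0.15 log2 over all 10 animals (edgeR adjusted p = 0.999; 0% of genes called). In the wider gate of 1 or more UMIs it was -0.60 (edgeR adjusted p = 0.144). Tbca, a tubulin chaperone, did not overlap either, at 292, 313, 457, 464 and 251 CPM against 555, 519, 569, 493 and 602 CPM (0.58 ± 0.20, edgeR adjusted p = 0.999). Emp3, a membrane protein, was at 373, 397, 580, 520 and 646 CPM against 336, 242, 264, 399 and 253 CPM (-0.75 ± 0.22, edgeR adjusted p = 0.999), which overlap. H2-T23, a non-classical class I gene, was at 162, 272, 279, 223 and 233 CPM against 370, 334, 386, 315 and 507 CPM (0.61 ± 0.23, edgeR adjusted p = 0.999), without overlap. Rpl29, Tbca and H2-T23 were picked for their low p, and Rpl29 also from earlier results of these data, so their separation is a description. How many of all genes tested separate likewise was not counted.

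Tsc22d3, a glucocorticoid-induced gene, was at 48.6, 167, 212, 241 and 449 CPM in wild-type and 118, 92.4, 203, 220 and 158 CPM in knock-out animals (-0.52 ± 0.43, edgeR adjusted p = 1). Its ranges overlap, and wild-type animal 5, which held both cells without other markers, was highest. Without these cells that animal was at 472 CPM and the fold -0.48 ± 0.42 (edgeR adjusted p = 0.996). The transcript Gm43305 was at 130, 52.2, 89.2, 149 and 108 CPM against 16.8, 14.2, 0, 10.5 and 63.3 CPM with 41 UMIs in all; it did not pass the filter and was not tested here. Knock-out animal 5 overlapped the wild-type range. In the wider gate the lowest edgeR adjusted p, 0.0718, was shared by Gm42031 (-2.37) and the immediate early gene Egr1 (1.53), followed by Limd1 (-1.59, edgeR adjusted p = 0.144) and Phf11b (1.57, edgeR adjusted p = 0.19). In the gate proper Gm42031 was at 48.6, 104, 55.7, 167 and 162 CPM in wild-type and 16.8, 35.5, 20.3, 42 and 0 CPM in knock-out animals (47 UMIs in all), and Limd1, a LIM-domain adaptor, at 130, 94, 89.2, 223 and 144 CPM against 33.6, 56.9, 61, 21 and 31.7 CPM (61 UMIs). Neither overlapped between genotypes, and neither passed the low-count filter there, so they were not tested in the gate itself. Both were picked from the wider gate, which holds most of these same cells, so their separation is a description.

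The other genes with the lowest p also missed. In the 4 animals these were the ribosomal-repeat transcripts Gm42418 (-0.61 ± 0.16) and AY036118 (-0.68 ± 0.21), Ccl17 (-1.56 ± 0.44) and Phip (-2.03 ± 0.63), and in the other direction Atp5l (0.79 ± 0.22), Tubb5 (0.95 ± 0.30), Tnni2 (1.15 ± 0.37), Tmsb10 (0.47 ± 0.17) and Rgs2 (1.36 ± 0.49), each at an edgeR adjusted p of 0.999. With all 10 animals they were the pan-leukocyte phosphatase Ptprc (-0.46 ± 0.17), Sept7 (-0.68 ± 0.26) and Set (-0.56 ± 0.22), and Atp6v0e (0.53 ± 0.19), Erh (0.54 ± 0.21) and Tmsb10 (0.52 ± 0.19), again at 0.999. Ptprc, which encodes CD45, ran from 513 to 710 CPM in wild-type and from 419 to 555 CPM in knock-out animals, overlapping between 513 and 555 CPM. Sept7, also picked for its low p, did not overlap, at 201 to 316 CPM in wild-type and 81.3 to 192 CPM in knock-out animals. Tmsb10, an actin-binding peptide, ran from 8239 to 11274 CPM and from 8314 to 20230 CPM, and Phip from 35.9 to 212 and from 28.4 to 102 CPM.

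Ccl4, Isg15 and Bst2 varied widely between animals of 1 genotype. Ccl4, a chemokine of activated myeloid cells, was at 16.2, 345, 546, 55.7 and 144 CPM in wild-type and 16.8, 107, 0, 21 and 1298 CPM in knock-out animals. In the 4 animals tested its fold was -2.63 ± 0.52 (edgeR adjusted p = 0.562), and in the wider gate with 9 animals it was 0.81 (edgeR adjusted p = 0.935). Of its 153 UMIs, 142 lay in 9 cells of 5 animals. Isg15 was at 1264, 146, 44.6, 55.7 and 53.8 CPM in wild-type and 286, 28.4, 0, 503 and 1836 CPM in knock-out animals, and 206 of its 229 UMIs lay in 9 cells. Bst2 was highest in the same knock-out animal 5 (1330 CPM), where 4 cells make up the gate, and ran from 102 to 441 CPM in the other 9 animals.

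**Figure D4:**
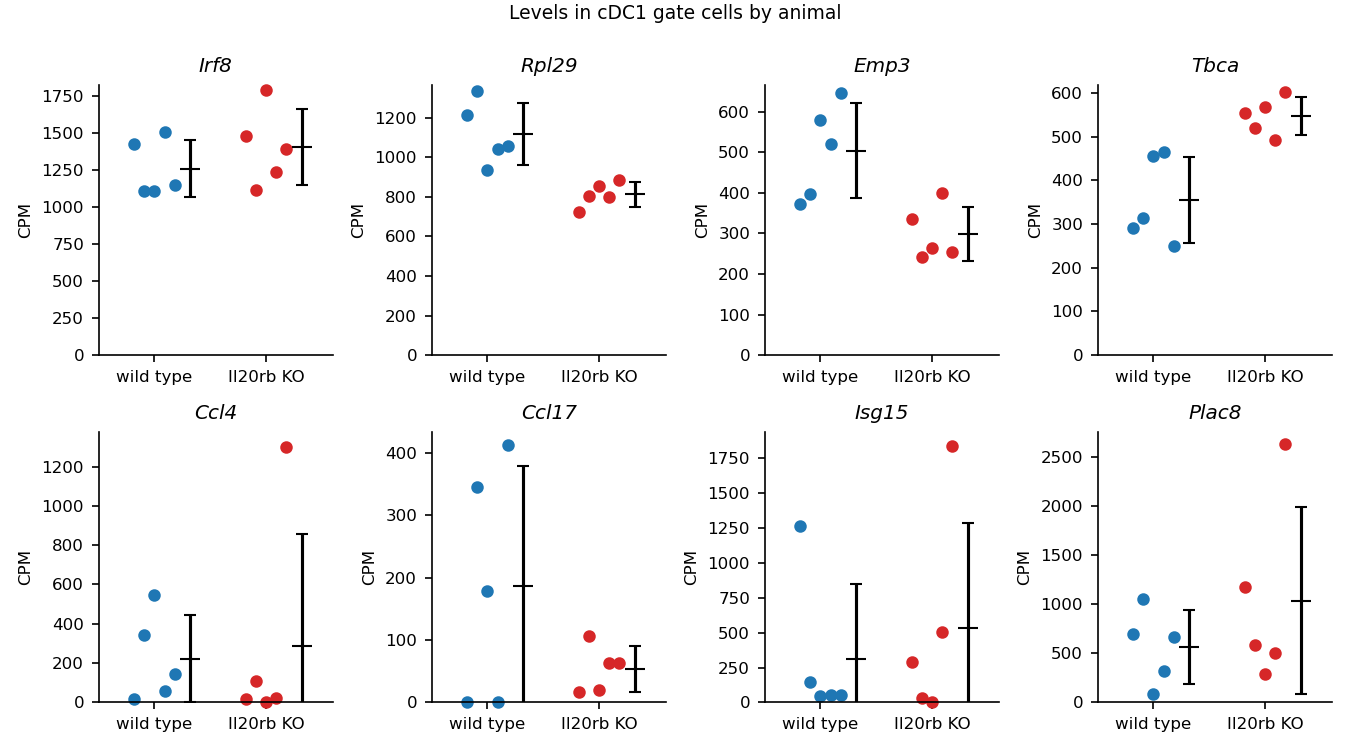
CPM of 8 genes in cDC1 gate cells by animal (points in hashtag order) with the mean ± SD (n = 5 per genotype; lower bars end at the axis where they pass 0). Rpl29 and Tbca did not overlap between genotypes, and Ccl4, Isg15 and Plac8 were highest in knock-out animal 5, which held 4 gate cells. How many of all genes separate likewise was not counted.

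A test of whether the genotype difference in the gate departs from that in cDC2 called 0 of 4955 genes with 4 animals (0%; edgeR, 198 unadjusted; DESeq2 0, 19 unadjusted) and 0 of 2881 with 10 (0%; edgeR, 129 unadjusted). This test recovered 0% of simulated 2-fold and 9.59% of 4-fold departures with 4 animals, and 31 and 56.2% with 10. Within well 1, edgeR called 5 genes between genotypes in 3 wild-type and 2 knock-out animals: Ifi27l2a (1.63), Lgals3 (1.01) and Tmsb10 (0.85) higher and Hspa1a (-3.26) and Hspa1b (-2.95) lower in knock-out animals. Within well 2 it called 0, with 46 unadjusted, in 1 wild-type and 4 knock-out animals, the lone animal being assumed to vary like the others. Of the 4 animals of the genotype fit, dropping wild-type 2, wild-type 3, knock-out 2 or knock-out 4 gave 3, 7, 2 and 1 calls, with a lone animal left in a group each time; Ccl4 was among the calls in 3 of these fits and Il1b was the call without knock-out animal 4.

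Among the gate cells themselves, a set of genes separated cells within animals. Plac8, a gene of myeloid precursors and monocytes, had 5 to 52 UMIs in 27 cells of 9 animals, 1 to 4 in 17 and 0 in 43. These groups were read off the same counts, so what follows is a description with no test. The 27 cells were 12 wild-type and 15 knock-out cells, and the 43 were 19 and 24. Among the 27, of which 26 had an Irf8 UMI, was a cell of wild-type animal 5 that lacked the other markers. It belongs to the pair with 88 and 5 Lyz2 UMIs described above, and levels without it were not computed. Ifitm3, an interferon-induced membrane protein, stood at 2749 CPM in the 27 cells and at 241 CPM in the 43, Ifitm2 at 862 and 169 CPM, Irf7 at 365 and 21.9 CPM, and Ly6a (Sca-1) at 486 and 0 CPM. The reverse held for Itgae (90.4 and 260 CPM), the tetraspanin Cd81 (113 and 513 CPM) and Lyz2 (456 and 1285 CPM).

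Lineage genes that the gate did not use were present at both ends. Irf8 was at 1149 and 1451 CPM, Batf3 at 279 and 275 CPM, Naaa at 1122 and 1560 CPM and Wdfy4 at 399 and 691 CPM. The gate genes Clec9a (207 and 222 CPM) and Xcr1 (105 and 269 CPM) had to be present in sum, since they selected the cells. Median depth was 9978 UMIs in the 27 cells and 7419 in the 43. Across the 87 cells Spearman's rho with Plac8 was 0.69 for Ifitm3, 0.65 for Ifitm2, 0.61 for Ly6a, -0.64 for Cd81 and -0.44 for Itgae; the cells share libraries and differ in depth. Itgae had a UMI in 11 of the 27 cells and 32 of the 43. The monocyte marker list, which includes Plac8 and Ccr2, had 10 or more UMIs in 34 of the 87 gate cells, and the part of other cell types in this pattern was not tested.

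**Figure D5:**
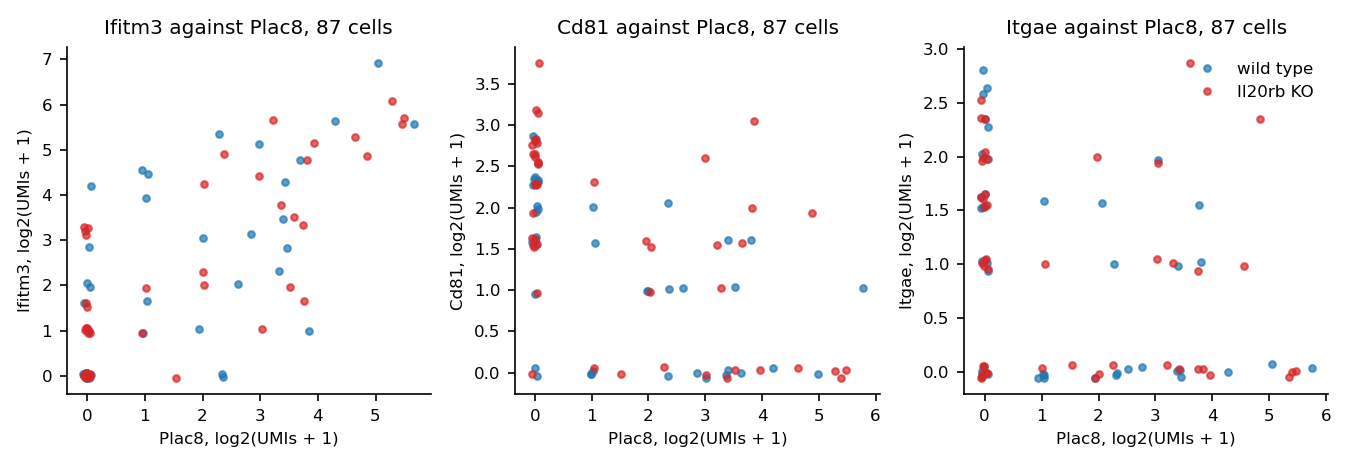
UMIs of Ifitm3, Cd81 and Itgae against Plac8 in each of the 87 cDC1 gate cells, as log2(UMIs + 1) with small random shifts to separate points, coloured by genotype. Ifitm3 was high where Plac8 was high (rho 0.69) and Cd81 low (rho -0.64), in cells of both genotypes.

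Other uneven genes lay in few cells. Isg15 and Irf7 went together over the cells (rho 0.69), and 9 cells of 5 animals held 90% of the Isg15 UMIs. Il1b had 91.3% of its 138 UMIs in 8 cells and Ccl17 had 92.8% of its 97 UMIs in 9 cells, 7 of them wild-type. Fos and Zfp36 varied together (rho 0.59), with 5 or more Fos UMIs in 22 cells of all 10 animals. Xcr1 and Clec9a had a rho of -0.24, which the minimum on their sum bears on.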

How the data were processed

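Single-cell 3′ RNA libraries of pooled, hashtagged CD45+ esophageal cells were measured in 2 wells. The authors deposited raw UMI counts of 32285 genes in 6054 cells, not normalized, with well, genotype and hashtag in the cell names, per the file headers; Cell Ranger 6.0.1, R 4.0.5 and build mm10 appear in the submitters' processing notes without roles. Every cell held 1000 to 52182 UMIs, and 2 barcodes occurred in both wells, 0 of them in the gate. Hashtag calling, annotation release and strand use: not given in the sources used here. Symbols were matched for 32158 genes in RefSeq tables of GRCm38.p6, and 127 identifiers had none. No doublets were called.

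Counts were summed per animal and gate and tested by edgeR 4.0.16 in R 4.3.3 (filterByExpr, TMM, robust quasi-likelihood, Benjamini-Hochberg over all genes tested), with DESeq2 1.42.0 as the alternative. Comparisons of gates had the animal as a term and a required log2 fold of 1. The planned minimum of 10 gate cells was met by 4 animals, so fits with all 10 animals, chosen after seeing the counts for the comparisons with cDC2, stand beside them; the migratory comparison used a minimum of 3 cells, chosen likewise. Shares were compared by exact permutation over 252 splits. CPM divides by all UMIs of the cells summed. The code was tested on simulated counts (seed 11). Members, gene lists and comparisons were chosen with earlier results of these data known. Genes named are the identity list, listed genes called or with the lowest p, the 10 largest folds per direction among called genes with a mean of at least 50 CPM in the higher gate, and the 5 lowest p per direction between genotypes; Gm43305, Isg15, Bst2, Plac8 and other genes uneven among cells were named after their values were seen. The alternatives were other gate thresholds, wells, filters, tools and left-out animals. Where a side held 1 to 3 UMIs in the animals of a fit, the ratio of summed CPM is given with an exact (Clopper-Pearson) 95% interval that covers counting error only.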

Additional observations from a re-analysis of the deposited data

Results flagged for a closer look

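The share of gate cells in wild-type animal 1 (0.557% of its cells) lay far below the other 4 wild-type animals, which ran from 1.36 to 1.57%. Its gap to the nearest animal, relative to the whole range of the group, passed the Dixon 95% limit for 5 samples. It was the only such value among 84 groups of 5 animals looked at, where chance gives about 1 in 20. Wild-type animal 1 held the most cells of all animals (897), 5 of them in the gate. As a share of the 3 dendritic-cell gates the same animal was the highest of the wild-type animals, at 12.2%. Without it the wild-type mean was 1.43% against 2.19% for knock-out animals (exact permutation p = 0.357, n = 4 and 5).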

How the results depend on the processing

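The difference in the share of gate cells (0.937 percentage points, knock-out minus wild type) had the opposite sign, -0.414, as a share of the 3 dendritic-cell gates (two-sided exact permutation p = 0.849), and passed the test under none of the alternatives run. Between genotypes, where 0 genes were called, edgeR called 1 without the low-count filter, 5 in well 1 alone and 1 to 7 with 1 of the 4 animals left out, the lone animal of a group then being assumed to vary like the others. The difference of that effect from cDC2, also 0, gave 4 without the filter, 1 without robust dispersion and 1 to 6 with an animal left out; with all 10 animals it gave 0, and 1 (Malat1) without wild-type animal 5. Of 25 genes named between genotypes, 16 had 1 sign in every fit that tested them. Fits with the opposite sign were Ccl4 (0.81), Erh (-0.01) and Irf8 (-0.07) in the wider gate, Irf8 in well 1 alone (-0.40), AY036118 (0.34), Atp6v0e (-0.02) and Tmsb10 (-0.03) in well 2 alone, Egr1 without knock-out animal 2 (-0.45), Tsc22d3 without knock-out animal 2 (0.20; lowest -0.95, without knock-out animal 4), Rgs2 with all animals but wild-type animal 2 (-0.08), and the Ccl4 difference from cDC2 with all animals but wild-type animal 3 (0.18) or knock-out animal 4 (0.07). The cause was not tested.

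The 454 genes that differed from cDC2 were 297 by DESeq2, 266 with all 10 animals, 273 with all animals but without the 2 cells that lack other markers, and 242 to 345 with all animals and 1 left out (242 without knock-out animal 2, 345 without wild-type animal 1, and 262, 263, 264, 266, 268, 269, 269 and 281 for the rest); fewer genes passed the filter there. The 150 genes that differed from migratory cells became 1062 without the filter, when 12109 genes were tested. The genes with the 10 largest folds in each direction of both comparisons kept their direction and their side of the threshold under every alternative that tested them; of the listed genes, Stat2, Phf11b, Trim30a, Notch2, Cebpb and Btg2 lost their call against cDC2 with all 10 animals, with folds of the same sign. Fits with 20 or more gate cells per animal, and between genotypes or against cDC2 with 3 or more gate UMIs, were not run, since too few animals remained. No paired analysis was possible because the replicate numbers of the samples are the 2 wells of pooled animals and the animals carry hashtag numbers that pair nothing across genotypes. At this depth, with 4 to 16 gate cells per animal, some simulated 2-fold changes between genotypes were missed. Of the changed genes that passed the filter, 50% were recovered with 4 animals and 82.4% with 10, with the same spread set for every gene.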
